A study of Mus musculus with 7 samples.

Results

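Genes of glycolysis and glucose use were examined in sorted mouse pancreatic alpha cells with and without an intact Nkx2-2 gene. The set held 38 gene symbols chosen by name: glucose transporters, the enzymes of each glycolytic step, the enzymes that make and use lactate, the regulators of pyruvate entry into mitochondria, and enzymes of gluconeogenesis and the pentose phosphate pathway. They matched 39 of the 55536 entries of the deposited count table, because Aldoa stands there under 2 gene IDs. RNA was sequenced from 4 control libraries (genotype Nkx2.2+/+;Gcg-iCre;Rosa26:tdTomato) and 3 knockout (KO) libraries (Nkx2.2fl/fl;Gcg-iCre;Rosa26:tdTomato), of a strain spelled C57B1/6J in the design text. Both groups carried the Cre recombinase driven from the glucagon gene and the tdTomato reporter by which the cells were sorted from islets. A Cre reporter stays on once recombined, so it marks cells that have expressed Gcg at some time and does not by itself show that they still do. The age and sex of the mice, and whether animals were pooled, are not given in the sources used here, so p-values measure the spread between these libraries only.

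Glycolysis splits glucose into pyruvate and yields a little ATP, and lactate dehydrogenase and pyruvate dehydrogenase compete for that pyruvate. Fructose bisphosphatase opposes the phosphofructokinase step by a separate reaction and belongs to gluconeogenesis. Islet cells couple glucose metabolism to secretion. How glucose restrains glucagon release through alpha cell metabolism is a long-standing question.

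The libraries held between 45483504 and 72456557 counts. Values are given for controls 1 to 4 and then for KO 1, KO 2 and a KO library whose column number matches no sample title, called the unnumbered KO library here. For Nkx2-2, controls held 8596, 11199, 12297 and 9782 normalized counts (counts divided by the library's DESeq2 size factor), and KO libraries 7758, 7534 and 7694. The KO values lay below all controls, at 73.2% of the control mean (log2 fold change -0.45, SE 0.13, adjusted p 0.0218 by DESeq2, 0.152 by edgeR), and the call held in 2 of 7 DESeq2 fits that each left out 1 library. Which exons the floxed allele removes is not given in the sources used here, so counts over the whole gene are a weak check of the genotype. Gcg held 11.4% to 13.5% of the counts in controls and 5.87% to 7.39% in KO libraries. Control 4 stood apart. It held counts for 31024 genes, against 23150 to 24153 in the other controls and 24360 to 25873 in KO libraries. Genes lying almost wholly under opposite-strand exons were depleted in it, by a median of 6.64 log2 units over 37 such genes. Of the members, Pklr (22.0%), Pdha1 (16.1%), G6pdx (13.6%) and Gpi1 (11.5%) had the largest parts of their exons under opposite-strand exons, so their counts are less certain. Gapdh, Eno1, Pgam1, Ldha, Tpi1 and Aldoa have near-identical retrocopies or pseudogenes in the mouse genome. Reads may be lost to these or shared with them, since the handling of multi-mapping reads is not given in the sources used here, and the levels of those genes are uncertain.

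Among the members, 3 genes differed between KO and control alpha cells. Fbp1, the gluconeogenic fructose bisphosphatase, fell to 43.9% of the control level, and Slc2a3, a high-affinity glucose transporter, to 39.4%. Hk2, an inducible hexokinase, rose from 0 to 6 counts per control library to 16 to 54 per KO library. DESeq2 gave an adjusted p to 35 of the 39 entries and called 3 of them (8.57%), 1 higher and 2 lower in KO, where an adjusted p under 0.05 is a call. Over all 17571 genes tested, 4.51% were called, 2.24% higher and 2.27% lower. The quasi-likelihood test of edgeR called Fbp1 alone of 38 entries (2.63%), against 1.05% of all genes. The median log2 fold change (KO over control) of the 35 entries was 0.037, and that of all genes tested was 0.0098. Of the 35, 29 lay between -0.5 and 0.5 on the log2 scale, as did 80.2% of all genes tested, so closeness to 0 is not particular to the members. An unadjusted p under 0.05 was found for 9 of the 35 (25.7%), against 12.2% of all genes, by DESeq2, and for 7 of 38, against 10.5% of all genes, by edgeR. The groups did not overlap in 5 of the 35 entries (14.3%), against 12.0% of all genes tested. The 4 entries without an adjusted p were Hk3, Slc16a3, Pck1 and Fbp2, which had between 0 and 48 counts in each library.

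**Figure D1:**
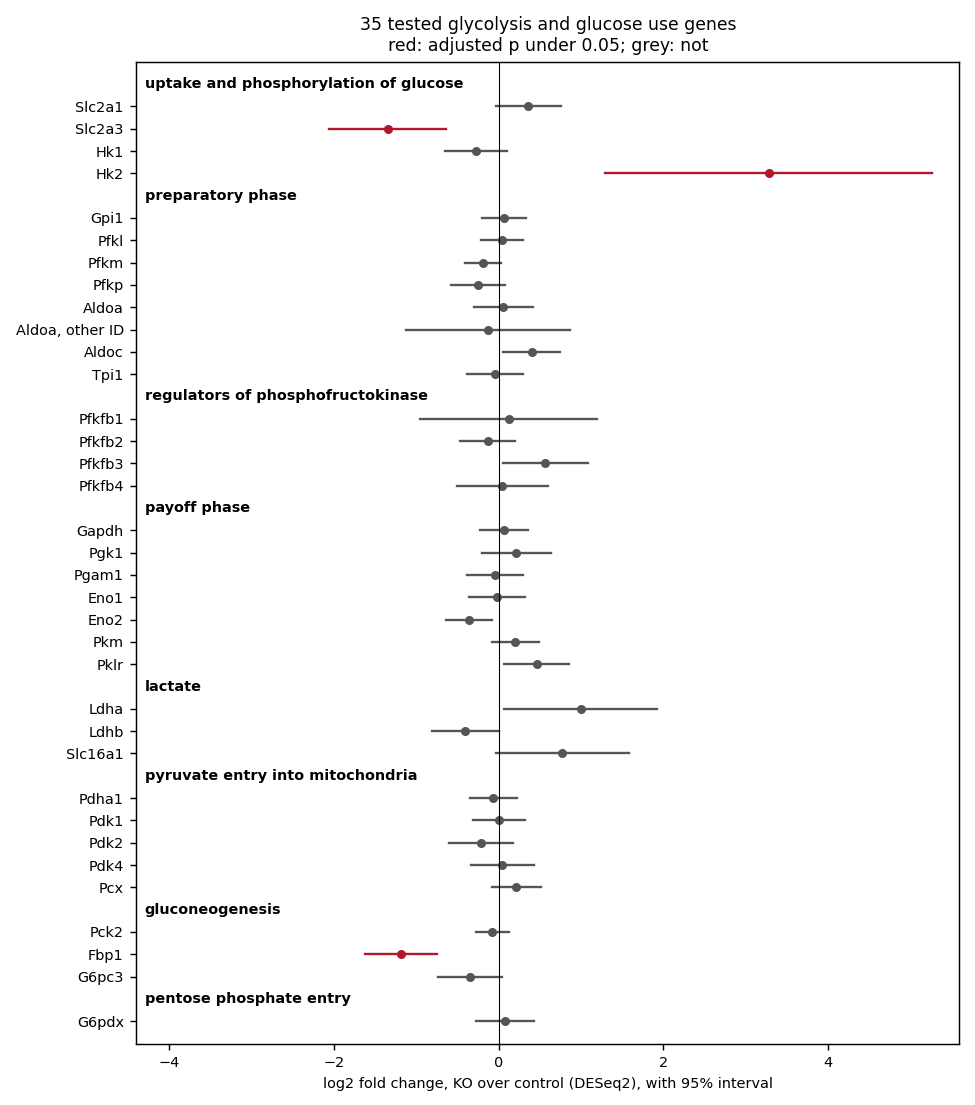
Log2 fold change of KO over control (x axis) for the 35 members that DESeq2 tested (y axis, by role), with points for the estimates and lines for 95% intervals. Red marks Slc2a3 (-1.35), Hk2 (3.28) and Fbp1 (-1.19), the members with an adjusted p under 0.05; the 32 grey members were not past the threshold.

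Fbp1 (ENSMUSG00000069805, chromosome 13, 62864753 to 62888282, minus strand, mm10) was the gluconeogenic member with the clearest difference. Controls held 813, 698, 1233 and 876 normalized counts, and KO libraries 462, 364 and 367. All KO libraries lay below the lowest control, and the highest value was that of control 3. The mean fell from 905 ± 231 (SD, n = 4) to 398 ± 55.5 (SD, n = 3), or -1.19 on the log2 scale (SE 0.22, adjusted p 1.21e-05 by DESeq2, 0.0377 by edgeR). Fbp1 was called in all 7 DESeq2 fits that each left out 1 library, with adjusted p-values of at most 0.00145. Without control 4, edgeR also called Fbp1 (adjusted p 0.0411) and no other member, 1 of 36 tested (2.78%), against 1.34% of all genes.

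The other gluconeogenic members were not called. Pck2, the mitochondrial phosphoenolpyruvate carboxykinase, had means of 3678 ± 281 (SD, n = 4) normalized counts in controls against 3492 ± 121 (SD, n = 3) with KO, a log2 fold change of -0.07 with a 95% interval from -0.28 to 0.13. Pck1, its cytosolic counterpart and a hallmark of liver and kidney, had only 2 to 24 counts per library. G6pc3, the widely expressed glucose 6-phosphatase, differed by -0.35 on the log2 scale (adjusted p 0.524), and its groups overlapped. Fbp2, the muscle-type enzyme next to Fbp1 on chromosome 13, had 2 to 20 counts in the controls and 10 to 12 in the KO libraries. Per kilobase of exon, Fbp1 made up between 96.8% and 99.8% of the pair in each library.

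The promoter of Fbp1 is shown because this gene carried the most stable difference, and that of Hk2 because it moved the other way. Both run from 250 bases before to 50 after the RefSeq start (GRCm38.p6), read 5′ to 3′ on the minus strand, at chr13:62888233-62888532 for Fbp1 and chr6:82774405-82774704 for Hk2. Capitals mark any match to AAGTG, the core bound by NKX2 homeodomain factors, or to ACGTG, the core of the hypoxia response element, on either strand (CACTT and CACGT in reverse). The motifs were picked with the gene results known.
Fbp1: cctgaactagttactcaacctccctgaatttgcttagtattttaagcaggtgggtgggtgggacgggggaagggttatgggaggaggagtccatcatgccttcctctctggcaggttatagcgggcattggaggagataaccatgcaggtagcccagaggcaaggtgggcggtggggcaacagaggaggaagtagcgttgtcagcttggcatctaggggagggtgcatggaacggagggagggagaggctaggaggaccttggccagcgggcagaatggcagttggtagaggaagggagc
Hk2: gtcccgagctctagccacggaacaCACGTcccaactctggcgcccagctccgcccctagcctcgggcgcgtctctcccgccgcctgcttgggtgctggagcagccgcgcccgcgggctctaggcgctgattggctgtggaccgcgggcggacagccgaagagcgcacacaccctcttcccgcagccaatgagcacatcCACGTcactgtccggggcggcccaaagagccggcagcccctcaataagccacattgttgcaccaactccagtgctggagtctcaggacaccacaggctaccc
These letters were found at 2 places in the Hk2 window, both as CACGT, and at none in the Fbp1 window. Over all 32851 promoters of this length in the table, 46.4% held AAGTG and 19.6% held ACGTG on some strand. The table matched 37 of the 38 symbols with 58 promoters, of which 53.4% held AAGTG and 43.1% held ACGTG. A match here describes letters and shows no binding.

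Slc2a3 (GLUT3; ENSMUSG00000003153, chromosome 6, 122727809 to 122801640, minus strand) was lower in KO among the glucose transporters. Controls held 370, 461, 828 and 547 normalized counts, and KO libraries 190, 337 and 125. The groups did not overlap, but KO 2 reached close to control 1. The mean fell from 551 ± 198 (SD, n = 4) to 217 ± 108 (SD, n = 3), or -1.35 on the log2 scale (SE 0.36, adjusted p 0.00752 by DESeq2, 0.17 by edgeR). The DESeq2 call was lost without control 3 (0.089), KO 1 (0.105) or the unnumbered KO library (0.0695). Slc2a1 (GLUT1), the basal transporter of most cells, had 313 ± 23.9 in controls and 403 ± 67.8 in KO (log2 fold change 0.36, adjusted p 0.489), with overlapping groups.

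Hk2 (ENSMUSG00000000628, chromosome 6, 82725025 to 82774454, minus strand) was near the lower limit of detection in controls. Controls held 6, 4, 0 and 4 raw counts, and KO libraries 54, 40 and 16. Control 3, at 0, allows up to 3 counts if each count is a separate read pair, and more if both mates are counted. All KO libraries lay above all controls, and the unnumbered KO library, among the deepest, was the lowest of the 3. The fitted log2 fold change was 3.28 (SE 1.01, adjusted p 0.0308 by DESeq2, 0.175 by edgeR), and its 95% interval ran from 2.46-fold to 38.6-fold. The adjusted p of Hk2 was 0.0601 without control 2 and 0.08 without control 3, and DESeq2 gave none without KO 1 or without KO 2. Even raised, Hk2 stayed at 5.92 normalized counts per kilobase of exon in KO (0.604 in controls), against 187 for Hk1 in KO.

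Hk1, the constitutive hexokinase, had 1926 ± 226 (SD, n = 4) and 1594 ± 433 (SD, n = 3) normalized counts in controls and KO (log2 fold change -0.27, adjusted p 0.72). Hk3, a hexokinase known from blood cells, had 0 to 16 counts in controls and 6 to 48 in KO, with overlapping groups. Hkdc1, a hexokinase-related gene outside the member list, had 0 counts in all 4 controls and 8, 8 and 2 in the KO libraries. DESeq2 gave neither gene an adjusted p.

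**Figure D2:**
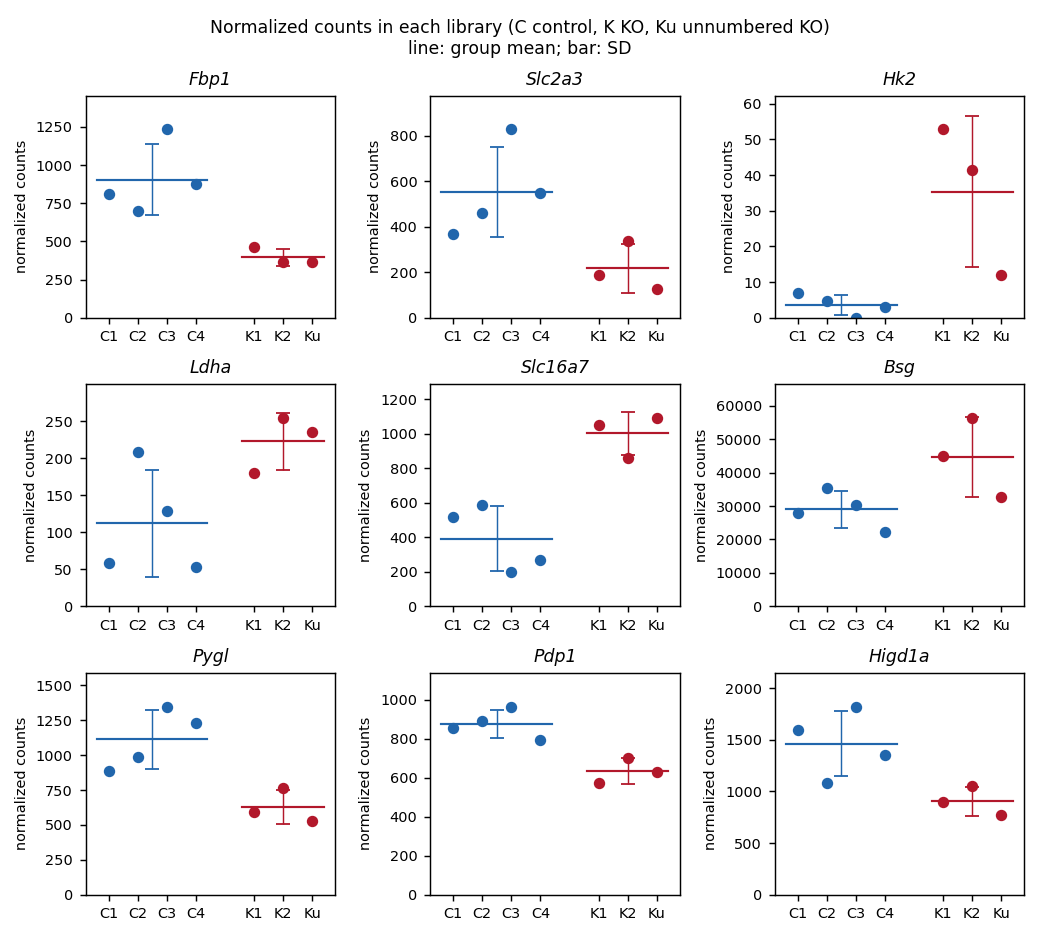
Normalized counts (y axis, from 0) in each library (x axis) for 4 members and 5 other glucose metabolism genes, with group means as lines and SD as bars. In the panels of Fbp1, Slc2a3, Pygl, Pdp1 and Higd1a the KO points all lie below the control points, in those of Hk2 and Slc16a7 all above, and in those of Ldha and Bsg the groups overlap.

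The enzymes of the glycolytic steps themselves were not called. The 14 genes from Gpi1 to Pklr had log2 fold changes between -0.36 and 0.46, 8 positive and 6 negative. DESeq2 called 0 of the 14, with 3 (Aldoc, Eno2 and Pklr) at an unadjusted p under 0.05 (12.2% of all genes), and edgeR called 0, also with 3 at that level (10.5% of all genes). The 95% intervals of all 14 lay between -0.64 and 0.85, and those of 9 lay wholly within -0.5 and 0.5. Summed, the 14 genes held 48099 to 66267 normalized counts in control libraries and 54279 to 68214 in KO libraries, which overlapped. As a share of all counts they made up 0.0919% to 0.111% in controls and 0.112% to 0.123% in KO, where the groups did not overlap and KO was higher. Control 3 (0.1114%) and the unnumbered KO library (0.1123%) nearly met. Scaling to library totals raised the median log2 fold change of all genes tested by 0.10, so a rise on this scale is not particular to these genes. The share of Gcg in the same totals was lower in KO, and its part in the difference in shares was not tested.

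In the preparatory phase, which uses ATP to make triose phosphates, Gpi1 (glucose 6-phosphate isomerase) had 4910 ± 695 normalized counts in the control libraries, against 5141 ± 218 in KO. The phosphofructokinase subunit genes Pfkl (liver type), Pfkm (muscle type) and Pfkp (platelet type) had log2 fold changes of 0.04, -0.19 and -0.25, with adjusted p-values of 0.998, 0.582 and 0.665. Aldoa, the main aldolase, had 9222 ± 2016 and 9593 ± 1214 normalized counts under its main ID (ENSMUSG00000030695), and 58.9 ± 26 and 53.7 ± 13.7 under the other (ENSMUSG00000114515). Aldoc, the brain-type aldolase, had 823, 967, 675 and 736 normalized counts in the control libraries, against 1128, 1151 and 898 in KO. Its groups overlapped through control 2 and the unnumbered KO library (log2 fold change 0.40, adjusted p 0.251). Tpi1, which interconverts the triose phosphates, had a log2 fold change of -0.04.

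In the payoff phase, where ATP is made, Gapdh had 7628 ± 1169 (SD, n = 4) and 7974 ± 964 (SD, n = 3) normalized counts, with a 95% interval of its log2 fold change from -0.23 to 0.35. Pgk1 (phosphoglycerate kinase), Pgam1 (phosphoglycerate mutase) and Eno1 (the ubiquitous enolase) had log2 fold changes of 0.22, -0.04 and -0.02. Eno2, the neuronal enolase that also marks endocrine cells, had 1388, 1279, 1476 and 1652 normalized counts in the control libraries, against 1255, 1053 and 1082 in KO. The groups of Eno2 did not overlap, though KO 1 came close to control 2, and it was not called (log2 difference -0.36, unadjusted p 0.0118, adjusted p 0.164). Pkm, the pyruvate kinase of most tissues, had 17916 ± 2377 and 20644 ± 2935 (log2 fold change 0.20, adjusted p 0.729). Pklr, the liver and red cell pyruvate kinase, had 764, 987, 843 and 633 in controls and 1122, 1312 and 898 in KO, with overlap only between control 2 and the unnumbered KO library. Its log2 fold change of 0.46 had an adjusted p of 0.24, and of 0.0248 when libraries were scaled to their totals.

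The 4 bifunctional enzymes that set fructose 2,6-bisphosphate, the activator of phosphofructokinase, were not called. In both tools 1 (Pfkfb3) had an unadjusted p under 0.05, against 12.2% of all genes by DESeq2 and 10.5% by edgeR. Pfkfb3, the form with the highest kinase activity, had 494, 285, 354 and 322 normalized counts in the control libraries, against 652, 385 and 581 in KO. KO 2 fell among the controls, and the log2 fold change of 0.57 had an adjusted p of 0.306. Pfkfb2 was the most abundant of the 4 per kilobase of exon in every library, with a log2 fold change of -0.13, and Pfkfb4 had 0.04. Pfkfb1, at 24.8 to 82.1 normalized counts per library, had a wide 95% interval, from 0.518-fold to 2.30-fold.

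The lactate genes pointed in different directions. DESeq2 called 0 of 3, with 2 at an unadjusted p under 0.05 (12.2% of all genes). In edgeR 0 were at that level (10.5% of all genes). Ldha, the subunit that favours lactate formation, had 59, 208, 128 and 53.5 normalized counts in the control libraries, against 180, 254 and 235 in KO. Control 2 lay among the KO libraries, and controls 1 and 4 were lowest. The log2 fold change of Ldha was 1.00 (SE 0.47, adjusted p 0.333). Without control 2 it was 1.49 with an adjusted p of 0.015, so its call depended on this library. Ldhb, the subunit that favours pyruvate formation, had 601 ± 102 (SD, n = 4) in controls against 454 ± 65.7 (SD, n = 3) in KO (log2 fold change -0.40, adjusted p 0.41).

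Of the member lactate transporters, Slc16a1 (MCT1) showed 31.8, 67.2, 49.7 and 44.8 in the controls against 86, 80.6 and 81.5 in KO (normalized counts). All its KO libraries lay above all controls, and its log2 fold change of 0.78 had an adjusted p of 0.451. Slc16a3 (MCT4), the exporter of highly glycolytic cells, had 34 counts in control 4 and at most 6 in any other library. Low Ldha and Slc16a1 are a known trait of beta cells. Here Ldha reached 67.4 normalized counts per kilobase of exon in KO and 33.9 in controls, below Ldhb in every library.

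Genes that steer pyruvate into mitochondria had log2 fold changes between -0.21 and 0.22, and DESeq2 and edgeR called 0 of 5. In both tools 0 had an unadjusted p under 0.05, against 12.2% of all genes by DESeq2 and 10.5% by edgeR. Pdha1, the catalytic subunit of pyruvate dehydrogenase, had a log2 fold change of -0.06, and its kinases Pdk1, Pdk2 and Pdk4 had 0.01, -0.21 and 0.05. Pdk4, the fasting-induced kinase, was abundant, with 11626 ± 840 normalized counts in controls and 12013 ± 4180 in KO. The KO spread of Pdk4 came from KO 2 at 16600 and the unnumbered KO library at 8420, on either side of all controls. Pcx, which carboxylates pyruvate to oxaloacetate, had 0.22 (adjusted p 0.706). G6pdx, which opens the pentose phosphate pathway, had 777 ± 120 and 819 ± 97.9 normalized counts (log2 fold change 0.08).

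**Figure D3:**
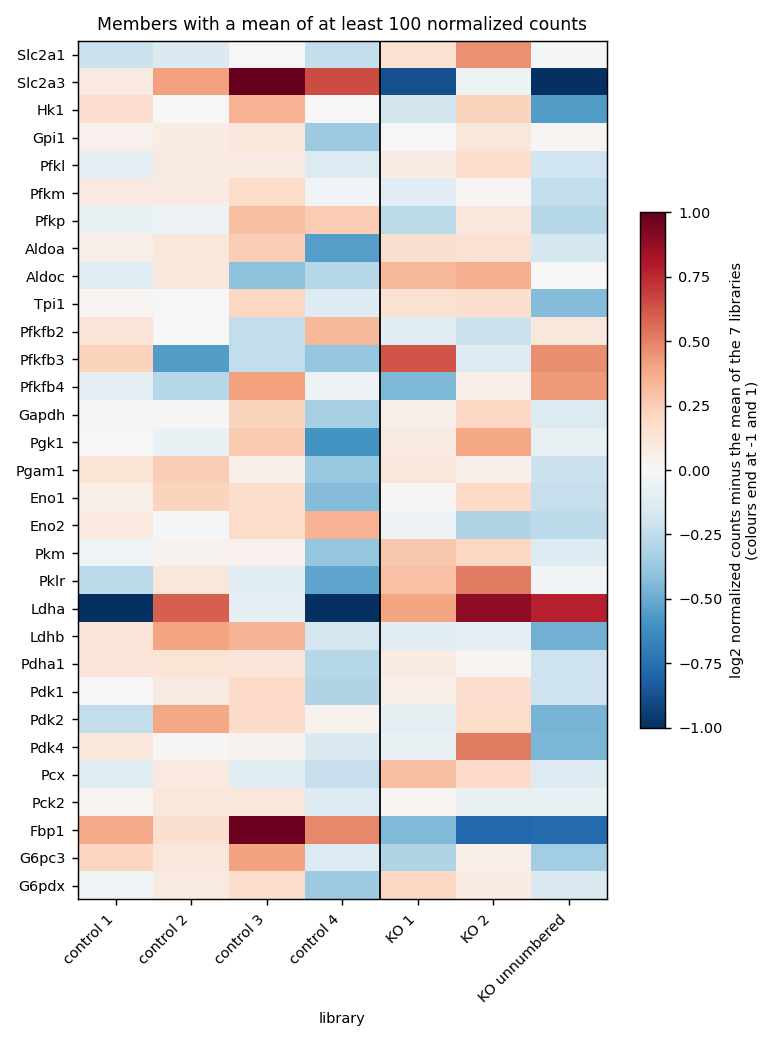
Log2 normalized counts minus the mean of the 7 libraries (colour, ending at -1 and 1) for the 31 members with a mean of at least 100 normalized counts (y axis) in each library (x axis). The columns of control 4 and the unnumbered KO library are mostly blue, and Slc2a3 and Fbp1 change from red to blue between the groups.

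The deepest library of each group was often its lowest for these genes. Control 4 was the lowest control in 21 of the 31 members with a mean of at least 100 normalized counts (67.7%), and in 43.6% of all 12766 such genes. The unnumbered KO library was the lowest KO library in 23 of the 31 (74.2%), and in 47.4% of all. Aldoa, for example, had 6319 normalized counts in control 4 and 9625 to 10966 in the other controls. Without both of these libraries, DESeq2 called Fbp1 and Slc2a3, 2 of 34 members tested (5.88%), against 5.49% of all genes. Without control 4 it called Fbp1, Slc2a3 and Hk2 (8.57%), against 5.23% of all genes.

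The make-up of isoenzyme families was compared as shares of normalized counts per kilobase of exon, with no test. In each of 12 families the same gene led in all 7 libraries, also when the longest transcript was used as the length. Slc2a2 (GLUT2), the low-affinity transporter, led GLUT1 to GLUT3 with 79.6% ± 5.69 (SD, n = 4) in controls against 87.4% ± 3.96 (SD, n = 3) in KO. The share of Slc2a3 was 9.45% ± 3.93 in controls and 2.60% ± 1.46 in KO. Pfkm led the phosphofructokinases with 61.9% ± 1.23 and 59.1% ± 0.971. Eno1 held 55.8% and 59.4% of the enolases, Aldoa 92.3% and 90.8% of the aldolases, and Pkm 93.5% and 92.3% of the pyruvate kinases. The size of a share depends on the length used. With the longest transcript Pfkm held 52.0% and 48.9%, and Eno1 70.3% and 73.7%, in controls and KO.

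Among all shares in the 12 families, only those of Slc2a3, Pfkl, Pfkm, Ldha and Ldhb did not overlap between the groups. Shares within a family are not independent: those of Ldha and Ldhb mirror each other, and those of Pfkl and Pfkm nearly do. For the counts of single genes, the groups did not overlap in 12.0% of all genes tested. Ldha made up 7.64% ± 3.59 of the lactate dehydrogenase pair in controls and 19.1% ± 3.99 in KO (11.1% and 26.2% with the longest transcript as the length). Pdk4 held 79.2% ± 2.09 and 79.8% ± 3.31 of the pyruvate dehydrogenase kinases. Pck2 held at least 98.8% of the phosphoenolpyruvate carboxykinase pair in every library. G6pc2, the islet glucose 6-phosphatase, held 91.3% and 93.8% of the glucose 6-phosphatases, with G6pc at 0.0249% or less. Slc2a2 and G6pc2 are also beta cell genes, and Ins2 was present at 219495 to 463704 normalized counts in controls and 328548 to 624599 in KO. The part that beta cell RNA has in these 2 levels was not tested.

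**Figure D4:**
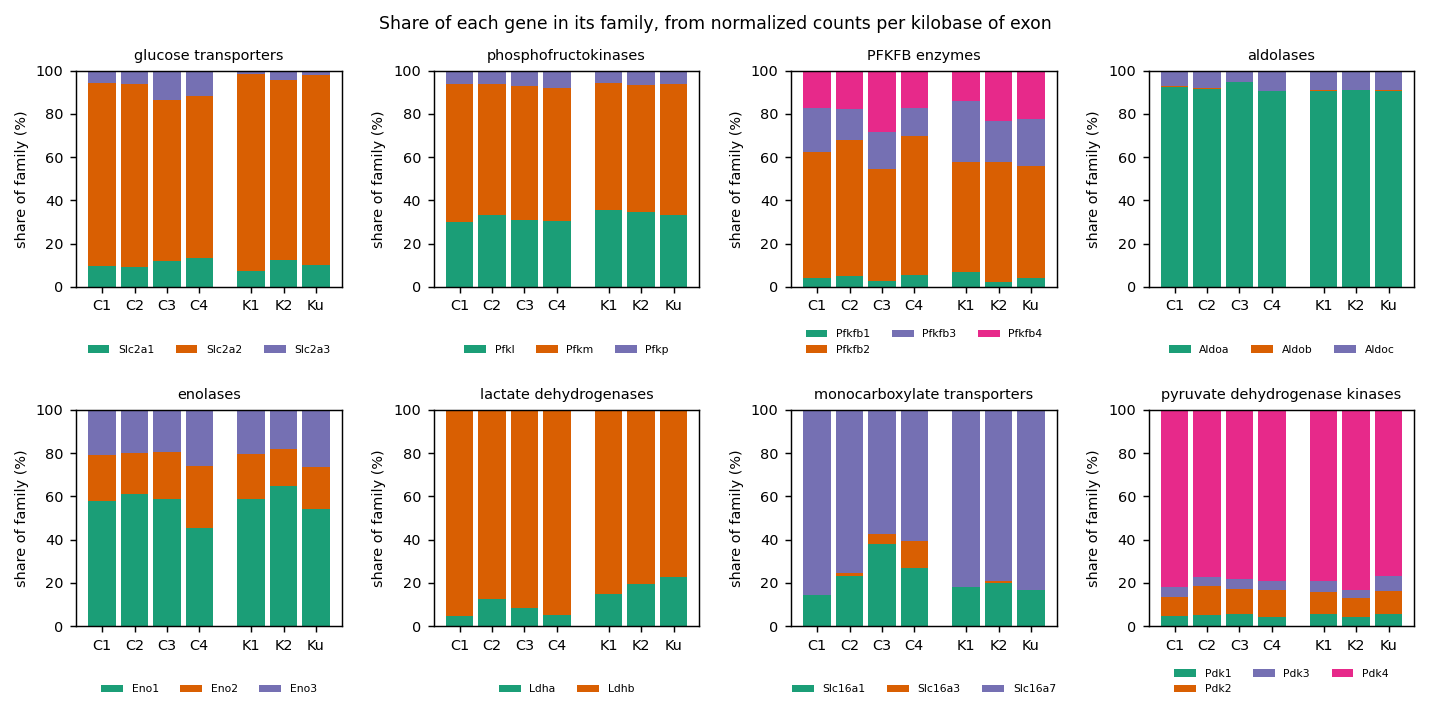
Share of each gene in its family (y axis, percent of the family's normalized counts per kilobase of exon) in each library (x axis; C control, K KO, Ku the unnumbered KO library) for 8 families. Pfkm fills most of the phosphofructokinase bars in both groups, Slc2a3 takes a smaller part of the transporter bars in KO, and Ldha a larger part of the lactate dehydrogenase bars.

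Among 95 other genes of glucose metabolism, the list of shuttles and lactate transport held 2 called genes (Slc16a7 and Bsg). The lists of glycogen (Pygl), pyruvate oxidation (Pdp1), other glycolytic isoenzymes (Gapdhs) and hypoxia response (Higd1a) held 1 each. DESeq2 tested 86 of the 95 and called 6 (6.98%), 2 higher and 4 lower in KO, against 4.51% of all genes. With libraries scaled to their totals it called 9, 6 higher and 3 lower. In edgeR 0 of 86 were called. An unadjusted p under 0.05 was found for 18 of the 86 (20.9%) by DESeq2, against 12.2% of all genes, and for 17 by edgeR, against 10.5%. On the log2 scale the 86 genes had a median of 0.012.

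Slc16a7 (MCT2), a high-affinity transporter of lactate and pyruvate, rose in KO. Controls held 515, 585, 201 and 269 normalized counts, and KO libraries 1052, 862 and 1092. The groups were well apart, and the difference was 1.35 on the log2 scale (SE 0.33, adjusted p 0.00212 by DESeq2, 0.125 by edgeR). It was called in all 7 fits that left out 1 library, but not without the 2 deepest libraries (log2 fold change 1.14, adjusted p 0.352). Its share of the MCT1, MCT2 and MCT4 genes per kilobase was 69.8% ± 13.3 in controls and 81.6% ± 2.05 in KO, with overlapping groups.

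Bsg (basigin), the chaperone of MCT1 and MCT4, had 27819, 35492, 30333 and 22352 normalized counts in the control libraries, against 45056, 56344 and 32628 in KO. The unnumbered KO library lay below control 2, so the groups overlapped. Bsg rose by 0.62 on the log2 scale (SE 0.19, adjusted p 0.0342 by DESeq2, 0.269 by edgeR). The call was lost without control 1 (0.119), control 3 (0.0886), KO 1 (0.211) or KO 2 (0.367). Emb (embigin), the chaperone of MCT2, had 0.41 with an adjusted p of 0.393.

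Pygl, the liver-type glycogen phosphorylase, fell in KO. Its values were 889, 984, 1348 and 1229 normalized counts in controls and 593, 761 and 530 in KO, with no overlap. The difference was -0.83 on the log2 scale (SE 0.20, adjusted p 0.00228 by DESeq2, 0.0837 by edgeR), and the call was lost without KO 1 (0.0585). It was the only called gene of the 10 in the glycogen list. Pygb, the brain-type phosphorylase, had 0.28 (adjusted p 0.502).

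Pdp1, the phosphatase that reactivates pyruvate dehydrogenase, fell from 875 ± 72.3 (SD, n = 4) to 635 ± 65.3 (SD, n = 3), a log2 fold change of -0.46 (adjusted p 0.0462 by DESeq2, 0.151 by edgeR). Its groups did not overlap, but of the 7 fits that left out 1 library only that without control 4 called it (adjusted p 0.0325), and without KO 1 its adjusted p was 0.452. Higd1a, a hypoxia-inducible mitochondrial protein gene, fell from 1463 ± 318 to 907 ± 141 (log2 fold change -0.69, adjusted p 0.0177 by DESeq2, 0.153 by edgeR), and exons of opposite-strand genes cover 22.5% of its length. It was called in 3 of the 7 such fits and lost without control 1 (0.102), control 3 (0.127), KO 1 (0.156) and the unnumbered KO library (0.139). It was the only called gene of 10 tested in the list of hypoxia response genes, where Hif1a had 0.00 and Vegfa -0.09.

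Gapdhs, the sperm form of glyceraldehyde 3-phosphate dehydrogenase, was called as lower (log2 fold change -3.45, adjusted p 0.034 by DESeq2, 0.328 by edgeR), and the value rested on control 4. It had 280 raw counts there, 26, 2 and 22 in the other controls, and 4, 8 and 8 in the KO libraries. Its DESeq2 call was lost without KO 1 (0.226), KO 2 (0.0793) or the unnumbered KO library (0.117). Without control 4 its log2 fold change was -1.74 and DESeq2 gave it no adjusted p.

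The citric acid cycle (16 genes), the pentose phosphate pathway (7), the hexosamine pathway (6) and the list of glucose entry and sensing genes (11 tested of 15) held 0 calls in DESeq2 and in edgeR. In both tools 2, 1, 0 and 4 of these genes had an unadjusted p under 0.05, against 12.2% (DESeq2) and 10.5% (edgeR) of all genes. In the list of glucose entry and sensing genes that was 36.4%, and the groups did not overlap in 4 of its 11 genes either (36.4%, against 12.0% of all). These 4 were Slc2a2, the sodium-coupled transporter Slc5a1 (log2 fold change 1.44, adjusted p 0.241), Slc2a10 (GLUT10; -0.92, adjusted p 0.111) and Mlxip, a relative of Mlxipl (-0.22, adjusted p 0.41). Slc2a2 had 3855 ± 907 normalized counts in the control libraries, against 6016 ± 1695 in KO without overlap (log2 fold change 0.64, adjusted p 0.0649). Sdhd, a subunit of succinate dehydrogenase, had -0.52 (adjusted p 0.072). Mlxipl, which encodes the glucose-responsive factor ChREBP, had 0.26 (adjusted p 0.859), and its target Txnip, the arrestin-like brake on glucose uptake, had -0.18 (adjusted p 0.932).

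**Figure D5:**
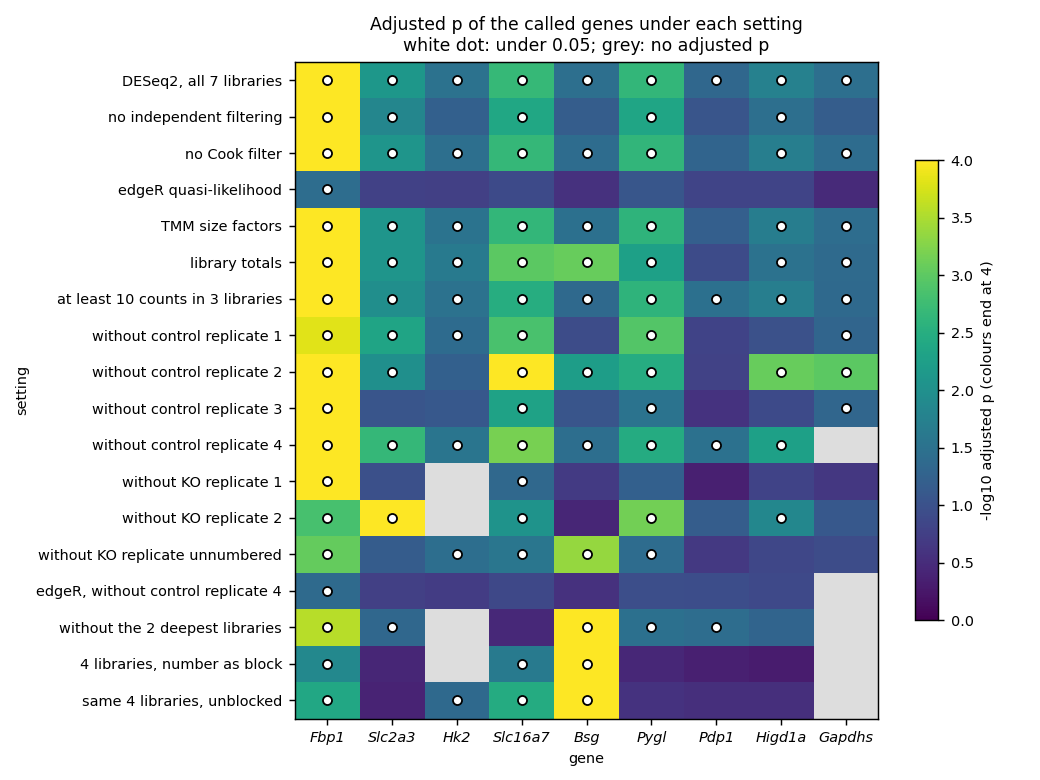
Adjusted p (colour, as -log10) of the 3 called members and the 6 other called glucose metabolism genes (x axis) under each setting (y axis); white dots mark values under 0.05 and grey cells have no adjusted p. Fbp1 has a dot in every cell of its column, including both edgeR settings.

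Islet cell markers moved with the genotype beside these genes. Over all genes tested, DESeq2 called 2.24% as higher and 2.27% as lower in KO, and edgeR called 1.05% in either direction. Of 9 alpha cell markers 7 fell (3 of them by edgeR too), and their summed normalized counts ran from 6480300 to 8470110 in controls and from 2973120 to 4291690 in KO. Both gamma cell markers (Ppy and Pyy) rose, with sums of 308242 to 579053 in controls and 888245 to 1135030 in KO. In the beta cell list 2 of 10 were called as higher (sums of 342369 to 699520 against 538552 to 988325). In the delta cell list it was 1 of 4 (196263 to 398978 against 355301 to 632402) and in the duct cell list 1 of 5 (8350 to 12381 against 11901 to 12455). All 10, 4 and 5 log2 fold changes were positive, with medians of 0.40, 0.71 and 0.65. DESeq2 gave 5, 3 and 3 an unadjusted p under 0.05 (12.2% of all genes), and edgeR 5, 1 and 3 (10.5%). Sst held most of the delta sums and Krt7 most of the duct sums. Sox9 (mean 267 in controls, 861 in KO) and Cftr (18.2 and 64.8) did not overlap (adjusted p 0.169 and 0.166). In edgeR 1 of the 2 gamma cell markers and 0 of the beta, delta, duct and leukocyte markers were called. In the leukocyte list C1qa fell, and it held most of the sums of 874 to 1477 in controls and 731 to 971 in KO. Cd74 was higher in all KO libraries (mean 89.6 normalized counts in controls and 261 in KO, log2 fold change 1.55, adjusted p 0.139). Ptprc, Lyz2 and Adgre1 had higher KO means too, at 42 raw counts or fewer, and were at 0 in at least 1 library. Of the acinar, endothelial and mesenchymal markers 0 were called in DESeq2 and in edgeR, with 0, 1 and 0 at an unadjusted p under 0.05 in DESeq2 and 0 in edgeR. Their sums were 174 to 13058, 369 to 556 and 1330 to 3768 in controls and 1078 to 6464, 357 to 921 and 2163 to 3989 in KO, and Pdgfra was at 0 in 2 libraries. The 4 haemoglobin genes were at 0 in 5 libraries, with sums of at most 36.1 in controls and 55.8 in KO. The acinar sum was highest in control 3 and KO 1. In bulk RNA, fewer cells of a type and less RNA per cell cannot be told apart, and the part of other cell types in the values of Fbp1, Slc2a3, Hk2, Slc16a7, Bsg, Pygl, Pdp1 and Higd1a was not tested.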

How the data were processed

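RNA from 4 control and 3 KO samples of sorted alpha cells was analysed. The libraries were made with a SMARTer Stranded Total RNA-Seq kit (Takara), per the labels' protocols. The authors deposited whole-number counts per gene. STAR and featureCounts, and the build mm10, are named in the submitters' processing notes, and cutadapt in the table's name. Versions, strand setting and the handling of multi-mapping reads are not given in the sources used here.

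All 7 columns were used. Counts from 1 to 10 were even in 84.4% to 88.9% of cases, as when both mates are counted, so precision at low counts is lower than the counts imply. The limit of 3 counts for a count of 0 covers counting error only, and is too low if both mates are counted.

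DESeq2 1.42.0, which the design text names, was run under R 4.3.3 on all genes (default Wald test, no covariate), with Benjamini-Hochberg adjustment over all genes and a threshold of 0.05. The edgeR 4.0.16 quasi-likelihood test (TMM, default filter) is printed beside it. Adjusted p-values without a tool are from DESeq2, intervals are 95% Wald intervals, and values after ± are SD. Scripts were tested on simulated data. Positions, exon lengths and opposite-strand overlaps came from GENCODE M21 (GRCm38), promoters from RefSeq (GRCm38.p6).

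The members and lists were chosen with earlier results of these data known. Named were all members, the listed genes called by DESeq2, Nkx2-2 and Gcg, and further listed genes as context, chosen after their values were seen. The remaining listed genes enter the counts only, and 1 item is not reported here. The alternatives were another tool, scalings, filters, left-out libraries and a replicate block.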

Additional observations from a re-analysis of the deposited data

Results flagged for a closer look

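The 4 control values of each of 47 named genes were checked for a library set apart from the rest. By Dixon's 95% critical value 2 genes had one, where chance flags about 1 in 20 (2.35 genes). Pdha1 had 2389 normalized counts in control 4 and 3181 to 3212 in the other controls. Gapdhs had 202 normalized counts in control 4 and 2.36 to 29.5 in the other controls.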

How the results depend on the processing

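Of the 11 called genes named (3 members, 6 other glucose metabolism genes, Nkx2-2 and Gcg), none changed sign under any of the 17 alternatives that gave an adjusted p. They kept their call in 111 of 178 such values. Fbp1 was the only one of the 9 glucose genes called in all 17. The number of members called was 3 in the full DESeq2 fit, 1 in edgeR, 1 in edgeR without control 4 (tried only after seeing the data, as was the fit without the block) and 1 to 3 when 1 library was left out, lowest without control 3 and without KO 1. Over the whole table the number was 792, against 203 in edgeR, 249 in edgeR without control 4, and 430 to 907 when 1 library was left out, lowest without KO 1. Among the other glucose metabolism genes it was 6, against 3 without independent filtering, 0 in edgeR, 1 (Sdhd, lower) in edgeR without control 4, and 1 to 7 when 1 library was left out, lowest without KO 1. Scaling to library totals raised the median log2 fold change by 0.10 and gave 684 higher and 297 lower calls, against 394 and 398. Of the 32 members tested and not called, 15 changed the sign of their log2 fold change in at least 1 alternative, none of them larger than 0.13 in size in the full fit. Of the 32, 2 were called, Pklr under library totals and Ldha without control 2. Numbers 1 and 2 are shared by control and KO columns and only 2 pairs exist, and whether the numbers mark a shared batch or day is not given in the sources used here. With the replicate block over these 4 libraries, 1 member (Fbp1, adjusted p 0.0135) was called, and 2 (Fbp1 and Hk2) in the same 4 libraries without it, where DESeq2 called 578 and 620 of all genes. The correlation of deviations within pairs was 0.283. With 2 libraries per group the deviations from the group mean mirror each other, so both pairs give the same value by construction. It cannot show whether the numbers mark a shared batch. The causes of these changes were not tested. Depth limits Hk2, Hk3, Hkdc1, Slc16a3, Pck1, Fbp2 and Gapdhs, whose libraries hold few counts.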
